A study of Homo sapiens with 22 samples.

Results

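The BCL2 family sets how easily a cell enters mitochondrial apoptosis, and 10 of its genes were followed across HEK293 clones that make 2 forms of coagulation factor VIII. The members are HRK, BBC3, BAD, BCL2L11, BID and PMAIP1 (BH3-only genes), BAX and BAK1 (effectors), and BCL2L1 and MCL1 (pro-survival genes). They were found by gene symbol in the deposited table, where all 10 were present among 15797 genes, and all 10 passed the filter on low values that left 15611 genes for testing.

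Every sample was RNA from HEK293 cells (human embryonic kidney) of a line labelled HEK28, untreated and grown in multiwell plates. HEK293 is an established line immortalised with adenoviral early genes, whose products include a BCL2-like protein, so its own death machinery is not that of an unmodified kidney cell. In the BDD group 6 clones (1, 2, 7, 12, 13 and 27) carried B-domain deleted FVIII, the shortened form of the secreted clotting factor, and clone 2 carries the prefix old in its title. In the FL group 4 clones (4, 7, 9 and 10) carried full length FVIII. A further line titled HEK 28 has the full length genotype label but no clone number, so it was set beside both groups and entered no test. Each clone gave 2 libraries, a and b, and the labels do not say whether these came from separate cultures. A clone's value is the mean of its 2 libraries, and what sets single clones apart besides the FVIII form cannot be told apart from the group where it differs between groups. The sources used here do not name the promoter of either transgene. The aim given for the study is to learn how deletion of the B-domain bears on FVIII secretion.

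BH3-only proteins are the sensors of the family. They are made or activated when a cell is stressed, and they bind pro-survival proteins such as the products of BCL2L1 (BCL-XL) and MCL1, or the effectors themselves. Freed BAX and BAK form pores in the mitochondrial outer membrane, cytochrome c escapes, and caspases are activated. In secretory cells with misfolded protein in the endoplasmic reticulum, transcription factors such as CHOP and ATF4 can raise BH3-only genes, whereas the activity of BAX, BAK, BID and BAD is set largely by protein shape, cleavage or phosphorylation, which RNA levels do not show.

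The BH3 segment is what joins the 10 genes, and it is shown here as the DNA that encodes it. The stretches were read from the GENCODE 29 transcripts on GRCh38, 5′ to 3′ on the coding strand. Capitals mark 18 bases that encode a leucine, 3 residues of any kind, a small residue (glycine, alanine or serine) and an aspartate, with 15 bases on each side.
HRK: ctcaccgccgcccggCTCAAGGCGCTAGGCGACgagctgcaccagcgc
BBC3: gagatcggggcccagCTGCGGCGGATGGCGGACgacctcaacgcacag
BAD: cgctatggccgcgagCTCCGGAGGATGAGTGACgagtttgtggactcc
BCL2L11: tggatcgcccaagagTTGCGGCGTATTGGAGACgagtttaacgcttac
BID: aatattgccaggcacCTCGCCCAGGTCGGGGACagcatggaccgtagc
PMAIP1: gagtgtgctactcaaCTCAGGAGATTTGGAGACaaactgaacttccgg
BAX: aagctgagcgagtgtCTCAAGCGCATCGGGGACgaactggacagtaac
BAK1: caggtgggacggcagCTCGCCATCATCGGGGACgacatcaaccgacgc
BCL2L1: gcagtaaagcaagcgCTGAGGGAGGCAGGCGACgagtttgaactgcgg
MCL1: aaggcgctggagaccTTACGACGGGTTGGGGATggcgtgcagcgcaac
The pattern is loose: 34.9% of 19514 coding genes held at least 1 match, so a match alone does not make a BH3 segment. BID had a second match, not shown, that lies outside its BH3 segment. The match began at residue 37 of the 91-residue HRK protein, at residue 29 of the 54 residues of PMAIP1 (NOXA) and at residue 213 of the 350 residues of MCL1. In the genome the HRK stretch lies in exon 1 of 2 (chr12:116881167-116881214, minus strand), the BBC3 stretch in exon 3 of 4 (chr19:47226576-47226623, minus strand), and the BAX stretch in exon 3 of 6 (chr19:48955772-48955819, plus strand).

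Levels are log2 CPM (reads in a gene, scaled to the size of the library), as the authors deposited them, and the libraries held 4951081 to 6197084 reads in genes. Differences are log2 fold changes, BDD minus FL, from limma on the 10 clones, with p-values adjusted over all 15611 genes and a threshold of 0.05. F8, the gene for FVIII, was at 7.11 to 7.87 log2 CPM in the FL clones, at 2.10 to 7.74 in the BDD clones and at 8.90 in the HEK 28 line. Of the HEK293 markers NEFM, NEFL, VIM, EYA1, INA and PAX2, all 6 were in the table, and their summed level was 1129 to 2290 CPM in the BDD clones and 5045 to 5502 CPM in the FL clones. NEFM and NEFL carry that sum (differences of -1.79 and -1.08), while EYA1 (0.21), INA (0.24) and PAX2 (0.03) were not lower in BDD by their estimates and did not pass the test. VIM was lower as well (-0.81, adjusted p = 0.037 by limma), a call lost in 7 of the 10 fits that leave out a clone. The endothelial markers were 0 of 5 in the table, the fibroblast markers 1 of 5 (COL1A1, 15.2 to 37.3 CPM in BDD and 8.64 to 16.4 CPM in FL clones) and the leukocyte markers 1 of 4 (CD14, 0.21 to 1.54 CPM in BDD and 0.26 to 0.64 CPM in FL clones). Mitochondrially encoded genes took 6.01% to 7.99% of CPM in the BDD clones, 8.77% to 9.44% in the FL clones and 7.93% in the HEK 28 line. The part of these differences in the results below was not tested.

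HRK, BBC3 and BAD, which encode BH3-only proteins, were higher in BDD than in FL clones, and BAX, which encodes a pore former, was lower. BCL2L11, BID, PMAIP1, BAK1, BCL2L1 and MCL1 did not pass the test. That is 4 of 10 members called, 3 higher and 1 lower, where 32.5% of all genes tested were called, 16.1% higher and 16.5% lower. The share of members called is therefore near that of all genes, and the members' median difference was -0.07 against 0.0087 over all genes tested. That median was of either sign over the refits, at 0.24 with per-clone trends removed, 0.05 without BDD clones 7 and 13 and 0.03 without BDD clone 13. By role, 3 of 6 BH3-only genes rose, 1 of 2 effectors fell and 0 of 2 pro-survival genes passed limma's adjusted test. The clones of the BDD and FL groups did not overlap for 2 of 10 members, HRK and BAX, against 22.7% of all genes tested.

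**Figure D1:**
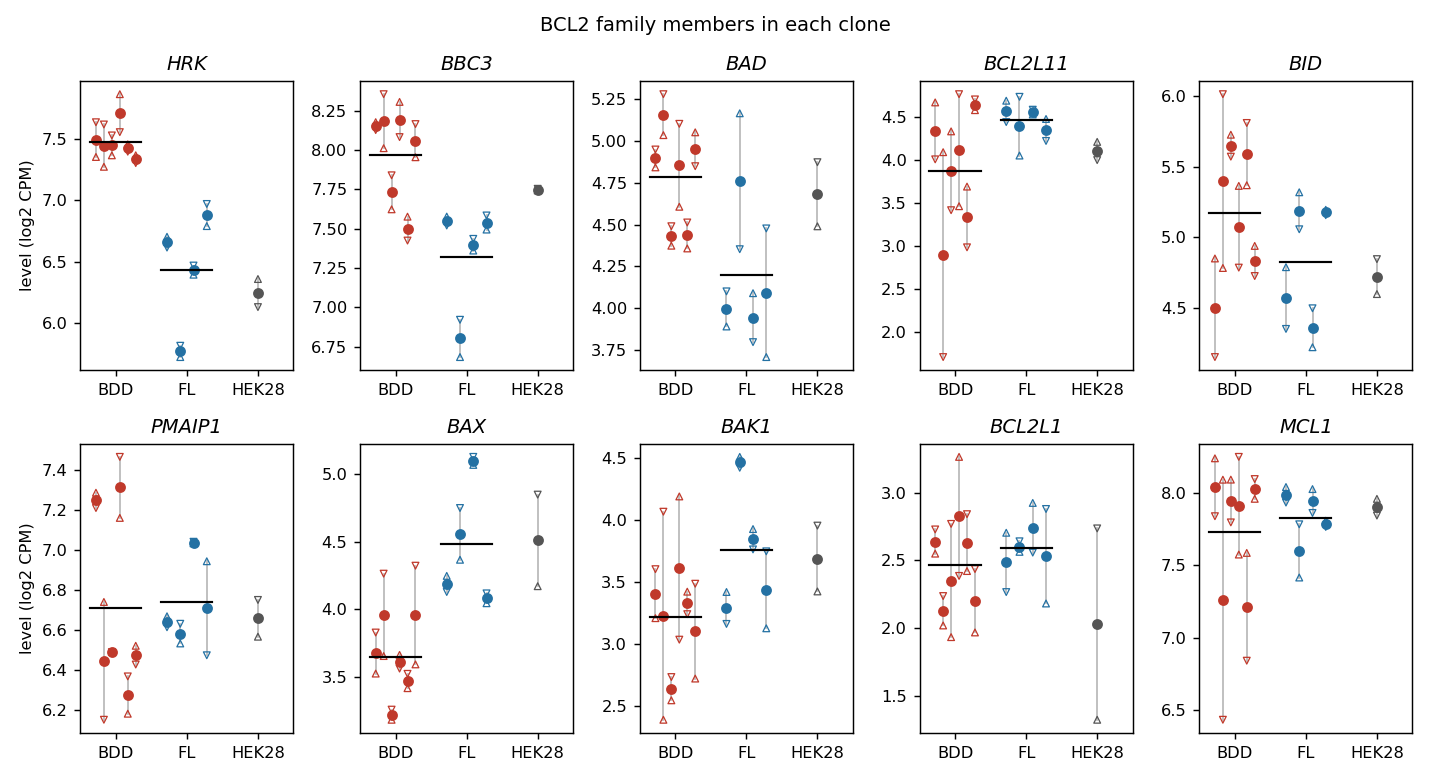
Level (log2 CPM, vertical axis, scaled for each gene) of each member in the 6 BDD clones, the 4 FL clones and the HEK 28 line. Filled points are clones, open triangles pointing up and down are libraries a and b, grey lines join them and black bars are group means. The filled BDD points of HRK lie above and those of BAX below every filled FL point, while single libraries of BAX overlap.

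HRK encodes harakiri, a BH3-only protein that binds pro-survival proteins and is best known from neurons deprived of trophic support. In the BDD clones its level was 7.34 at the lowest, 7.45 at the median and 7.71 log2 CPM at the highest. In the FL clones it was 6.66 (clone 4), 5.77 (clone 7), 6.43 (clone 9) and 6.88 (clone 10). Every BDD clone was above every FL clone, and the BDD clones lay close together, with an SD of 0.13 (n = 6) against 0.48 (n = 4) in FL; genes of like level had a median SD of 0.20 in BDD and 0.16 in FL. The HRK transcript was 2.06-fold higher in BDD (log2 fold change 1.04, SE 0.17, adjusted p = 0.00046). The call held under all 28 refits, from 0.82 without FL clone 7 to 1.19 without FL clone 10. HRK was the one BH3-only member whose BDD and FL ranges were separate.

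HRK lies on chromosome 12 (chr12:116856144-116881441, minus strand). Its promoter is shown because some genes for stress transcription factors, such as DDIT3 (CHOP), also differed between the groups (given further on). ATF4 did not pass the test. The window is the RefSeq one on GRCh38.p14 from 250 bases before to 50 after the start site, chr12:116881392-116881691 on the minus strand. Capitals mark the letters of TGATGNAA, the core of the composite element read by ATF4 with C/EBP factors such as CHOP.
HRK promoter: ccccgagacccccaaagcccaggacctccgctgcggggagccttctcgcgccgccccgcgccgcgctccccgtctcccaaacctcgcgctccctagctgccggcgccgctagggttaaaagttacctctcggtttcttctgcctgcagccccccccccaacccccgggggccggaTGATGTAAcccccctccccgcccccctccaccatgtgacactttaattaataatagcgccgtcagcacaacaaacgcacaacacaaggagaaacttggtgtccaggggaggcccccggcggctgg
The match begins at -75 from the start site, and 3.62% of 35116 RefSeq windows of this length hold this motif on either strand. A match in these letters is a description and shows no binding.

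BBC3 encodes PUMA, a BH3-only protein that binds all the main pro-survival proteins. Its level in the BDD clones was 7.50 at the lowest, 8.11 at the median and 8.19 log2 CPM at the highest. In the FL clones it was 7.55 (clone 4), 6.80 (clone 7), 7.40 (clone 9) and 7.54 (clone 10). The groups overlapped: 5 of 6 BDD clones were above all FL clones, and BDD clone 13 was below FL clones 4 and 10. The BBC3 transcript was 1.57-fold higher in BDD (0.65, SE 0.17, adjusted p = 0.0094), with adjusted p-values of 0.00039 to 0.046 over the 28 refits. BBC3 lies at chr19:47220822-47232766 (minus strand), and 2 microRNA genes that share its exons were not analysed here.

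HRK and BBC3 are both abundant transcripts, with means above 6 log2 CPM. Among the 2501 genes tested at that level, 264 were higher and 753 lower in BDD, so these BH3-only genes went the less frequent way for their level. BAX lies at the edge of 2 level classes that go opposite ways. Of the 3952 genes with means of 2 to 4 log2 CPM, 768 were higher and 476 lower, and of the 5224 genes with means of 4 to 6, 640 were higher and 1173 lower.

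BAD encodes a BH3-only protein that growth factor signalling holds inactive by phosphorylation. Its level in the BDD clones was 4.43 at the lowest, 4.88 at the median and 5.16 log2 CPM at the highest. In the FL clones it was 4.00 (clone 4), 4.76 (clone 7), 3.94 (clone 9) and 4.09 (clone 10). FL clone 7 lay inside the BDD range, and 4 of 6 BDD clones were above all FL clones. The BAD transcript was 1.51-fold higher (0.59, SE 0.19, adjusted p = 0.029). This call was lost without any one of BDD clones 1 and 2 and FL clones 4, 9 and 10 (adjusted p of 0.052 to 0.097). It was lost as well without BDD clones 2 and 12 (adjusted p = 0.11). BAD (chr11:64269830-64284704, minus strand) shares 404 exonic bases with GPR137 on the opposite strand, and whether the counting used strand was not given in the sources used here. GPR137 was at 3.74 log2 CPM in BDD and 4.20 in FL clones (-0.46, adjusted p = 0.062).

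BCL2L11 encodes BIM, a BH3-only protein that binds pro-survival proteins and can activate BAX directly. The BDD clones spread from 2.90 in clone 2 to 4.65 log2 CPM in clone 27, with a median of 4.00. The FL clones lay close together at 4.57 (clone 4), 4.40 (clone 7), 4.56 (clone 9) and 4.35 (clone 10). The BIM transcript was below all FL clones in 5 of 6 BDD clones, and BDD clone 27 was above all of them. The difference of -0.60 (SE 0.27) did not pass the test (adjusted p = 0.11), and it did without BDD clone 27 (-0.75, adjusted p = 0.031). The SD was 0.65 (n = 6) in BDD and 0.11 (n = 4) in FL. Over genes of like level the median SD was 0.28 in BDD and 0.24 in FL. BCL2L11 (chr2:111119378-111168447, plus strand) shares 727 exonic bases with MIR4435-2HG on the opposite strand, a more abundant RNA at 7.18 log2 CPM in BDD and 6.75 in FL clones (0.43, adjusted p = 0.11).

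BID encodes the link from death receptors to mitochondria, cut by caspase-8 into its active form. The BDD clones were at 4.50 at the lowest, 5.24 at the median and 5.65 log2 CPM at the highest, and the FL clones at 4.57, 5.19, 4.36 and 5.18 in clones 4, 7, 9 and 10. The groups overlapped and the difference of 0.35 (SE 0.23, 95% interval -0.14 to 0.84) did not pass the test (adjusted p = 0.26). It was 0.20 without FL clone 9, 0.13 without BDD clones 7 and 13 and 0.01 with F8 as a covariate. PMAIP1 encodes NOXA, which binds MCL1 and promotes its degradation. Its level was 6.27 at the lowest, 6.48 at the median and 7.31 log2 CPM at the highest in BDD clones, and 6.64, 6.58, 7.04 and 6.71 in FL clones 4, 7, 9 and 10. The FL clones sat between 2 high BDD clones, 1 and 12, and 4 low ones. The difference was -0.03 (95% interval -0.45 to 0.39, adjusted p = 0.91), and its sign turned under several refits.

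BAX encodes the effector that moves from the cytosol to mitochondria and forms pores. Its level in the BDD clones was 3.22 at the lowest, 3.65 at the median and 3.96 log2 CPM at the highest. In the FL clones it was 4.19 (clone 4), 4.56 (clone 7), 5.10 (clone 9) and 4.08 (clone 10). Every BDD clone was below every FL clone by its mean, though single libraries overlapped. Library b was at 4.32 in BDD clone 27 and 4.26 in BDD clone 2, and libraries a and b of FL clone 10 were at 4.05 and 4.12. The BAX transcript was 1.78-fold lower in BDD (-0.83, SE 0.21, adjusted p = 0.0085). The call held without each clone in turn (highest adjusted p of 0.041) and was lost with library b alone (-0.74, adjusted p = 0.065) and with F8 as a covariate (-0.72, adjusted p = 0.060).

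BAX lies at chr19:48954815-48961798 (plus strand). Its RefSeq promoter window, chr19:48954625-48954924 on the plus strand of GRCh38.p14, is shown for its repeated E-boxes. Capitals mark CACGTG, which MYC dimers and other basic helix-loop-helix factors read.
BAX promoter: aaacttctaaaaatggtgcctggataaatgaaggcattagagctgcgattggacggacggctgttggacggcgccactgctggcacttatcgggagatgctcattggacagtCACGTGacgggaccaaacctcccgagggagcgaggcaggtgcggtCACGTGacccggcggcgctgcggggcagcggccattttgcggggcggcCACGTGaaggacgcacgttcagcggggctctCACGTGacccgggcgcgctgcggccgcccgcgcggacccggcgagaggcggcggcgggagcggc
The 4 matches begin at -138, -93, -45 and -14 from the start site. Of 35116 RefSeq windows, 7.26% held at least 1 such match and 5 windows (0.0142%) held 4 or more. Among the other members, the BBC3 window held 1 (at -232). Of the BID windows, 2 that overlap held the same match, at -106 and -47 from their start sites. BAK1, BAD, BCL2L1, BCL2L11, HRK and PMAIP1 held none, and 15 windows of 9 members were searched. BBC3 also held TGANTCA, an AP-1 element, at -113 (7.71% of windows), and BCL2L11 a forkhead element, TGTTTAC, at -223 (3.42%). Both strands were searched. A match shows no binding, and no match in a window says nothing of a factor's binding elsewhere. Whether MYC or any other factor bears on BAX here was not tested.

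BAK1 encodes the effector that sits in the outer membrane already. Its level was 2.64 at the lowest, 3.28 at the median and 3.61 log2 CPM at the highest in BDD clones, and 3.29, 4.46, 3.84 and 3.43 in FL clones 4, 7, 9 and 10. The groups overlapped, with 3 of 6 BDD clones below all FL clones. The difference of -0.54 (SE 0.24, 95% interval -1.06 to -0.02) did not pass after adjustment (adjusted p = 0.10), and it was -0.30 without FL clone 7 (adjusted p = 0.34). The processed pseudogenes BAK1P1 and BAK1P2 were not analysed here, and reads could be split between copies.

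MCL1 encodes a short-lived pro-survival protein that restrains BIM, NOXA and BAK. Its level was 7.21 at the lowest, 7.93 at the median and 8.04 log2 CPM at the highest in BDD clones, and 7.99, 7.60, 7.95 and 7.79 in FL clones 4, 7, 9 and 10. BDD clones 2 and 13 were below all other clones. The difference was -0.10 (SE 0.17, 95% interval -0.47 to 0.27, adjusted p = 0.70). BCL2L1 encodes BCL-XL and its shorter pro-death splice form, which gene counts do not separate. Its level was 2.13 at the lowest, 2.49 at the median and 2.82 log2 CPM at the highest in BDD clones, and 2.49, 2.60, 2.74 and 2.53 in FL clones 4, 7, 9 and 10. The difference was -0.13 (SE 0.21, 95% interval -0.57 to 0.31, adjusted p = 0.67), from 12 to 45 reads a library. BCL2L1 shares 1424 exonic bases with the antisense gene ABALON, which was not analysed here. The intervals leave room for changes of either sign in both pro-survival genes.

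**Figure D2:**
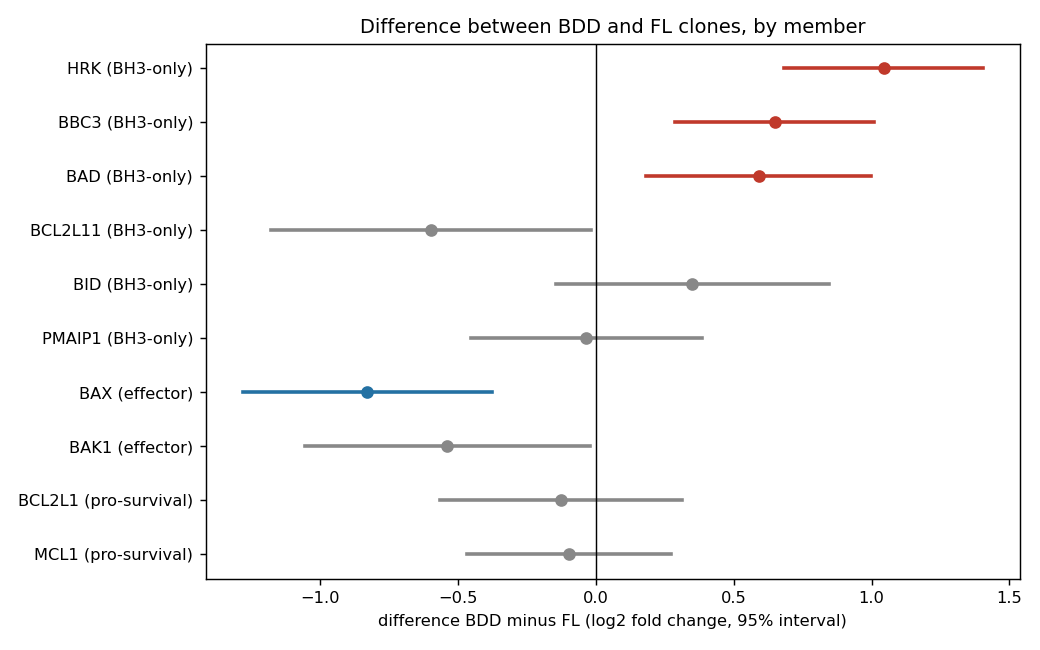
Difference between BDD and FL clones (log2 fold change, horizontal axis) for each member, with points for the limma estimate and bars for its 95% interval. Red marks members called higher (HRK, BBC3 and BAD), blue a member called lower (BAX) and grey the 6 that did not pass; the intervals of BCL2L11 and BAK1 end just below 0 before adjustment.

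Per length, that is CPM per kilobase of exon averaged over the BDD and FL clones, the most abundant members were BBC3 at 68.5, MCL1 at 51.0 and PMAIP1 at 48.4. HRK followed at 20.9 and BAD at 14.1, and BID (7.62), BAX (6.41), BAK1 (4.98), BCL2L11 (2.70) and BCL2L1 (1.63) were lower. Between the groups the order changed in places: per length HRK was at 26.0 in BDD and 13.1 in FL clones, and BAX at 4.79 and 8.84. So BAX was above BID (6.50) in the FL clones and below it (8.37) in the BDD clones on this scale. The length used counts all annotated exons of a gene and not the transcripts expressed. The BID difference itself did not pass the test. MCL1 (52.3) was just above BBC3 (51.3) in the FL clones, and BBC3 (80.0) above MCL1 (50.1) in the BDD clones. BCL2L1 was the lowest of the 10 in both groups.

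Differences between a death gene and the pro-survival gene it is known to pair with do not depend on library scaling, and they are given per clone as log2 differences without a test. BAX minus BCL2L1 was 1.19 ± 0.48 (SD, n = 6) in BDD and 1.89 ± 0.35 (SD, n = 4) in FL clones. BBC3 minus BCL2L1 was 5.51 ± 0.42 in BDD and 4.73 ± 0.40 in FL clones. BCL2L11 minus MCL1 was -3.86 ± 0.33 in BDD and -3.36 ± 0.11 in FL clones. BAK1 minus MCL1 was -4.52 ± 0.55 and -4.08 ± 0.67, and PMAIP1 minus MCL1 was -1.03 ± 0.39 and -1.09 ± 0.19. In each of these 5 pairs the ranges of the BDD and FL clones overlapped.

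The HEK 28 line lay with the FL clones for HRK (6.24 log2 CPM) and BAX (4.51), outside the BDD range of both. For BBC3 it was at 7.75, above all FL clones and inside the BDD range, and for BAD at 4.68, inside both ranges. Its BCL2L11 level of 4.11 was below all FL clones and its BCL2L1 level of 2.03 was below every clone, the latter from 12 reads in library a and 35 in library b. Its BID (4.72), PMAIP1 (6.66), BAK1 (3.69) and MCL1 (7.90) were inside the FL range. With 1 line there is no test.

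The median gap between libraries a and b of a clone was smallest for PMAIP1 (0.10), BAX (0.12), BBC3 (0.15) and HRK (0.16) and largest for BCL2L11 (0.66), in log2 CPM. The largest gap between libraries a and b in any clone was 0.35 for HRK, 0.34 for BBC3, 0.59 for PMAIP1, 0.73 for BAX and 0.81 for BAD, all in log2 CPM. It was larger for BCL2L11 (2.39), BAK1 (1.68), MCL1 (1.66), BCL2L1 (1.41) and BID (1.23). BDD clone 2 gave the largest gap for 7 members, HRK, BBC3, PMAIP1, BCL2L11, BAK1, BID and MCL1. In that clone MCL1 had 1405 reads in library a and 415 in library b, and BCL2L11 had 86 and 14, whereas BAK1 had 25 and 79 and BID 140 and 310. BDD clone 12 differed the other way: MCL1 had 928 reads in library a and 1755 in library b, BCL2L11 52 and 155, and BAK1 87 and 45. Over all genes above 4 log2 CPM the SD of the difference between libraries was 0.83 in BDD clone 2 and 0.53 in BDD clone 12, against 0.27 to 0.42 in the other 9 clones. Without these 2 clones HRK (0.99, adjusted p = 0.0034), BBC3 (0.54, adjusted p = 0.046) and BAX (-0.90, adjusted p = 0.016) kept their calls.

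**Figure D3:**
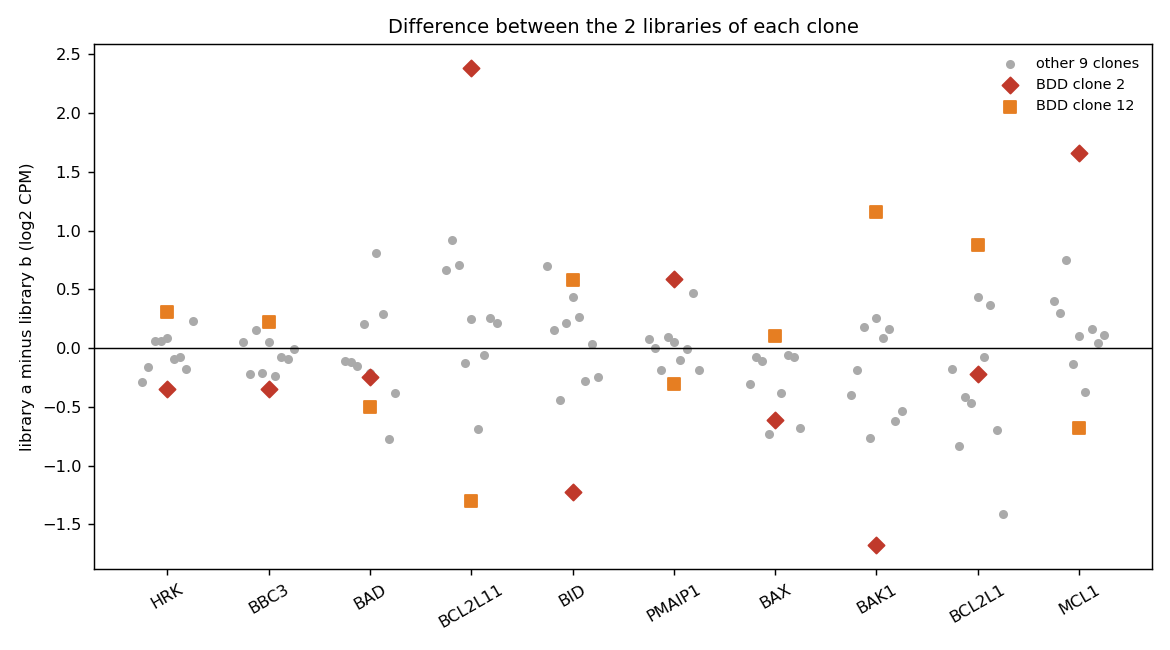
Library a minus library b (log2 CPM, vertical axis) for each member in each of the 11 clones. Red diamonds are BDD clone 2, orange squares BDD clone 12 and grey points the other 9; clone 2 stands at 2.39 for BCL2L11 and 1.66 for MCL1, where clone 12 stands below 0.

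F8 differed widely among the BDD clones, at 7.74 in clone 1, 7.43 in clone 12, 6.19 in clone 2, 5.45 in clone 27, 3.75 in clone 7 and 2.10 log2 CPM in clone 13, and the members are set against that order as a description. PMAIP1 was at 7.25 and 7.31 in clones 1 and 12, with the most F8, and at 6.27 to 6.49 in the other 4. BBC3 was lowest in clones 7 (7.73) and 13 (7.50), with the least F8, and at 8.06 to 8.19 in the others. BAD followed the same split, at 4.43 and 4.44 in clones 7 and 13 and at 4.86 to 5.16 in the others. BID went the other way, highest in clones 7 (5.65) and 13 (5.59). HRK held to 7.34 to 7.71 across this range of F8, and BAX was lowest in clones 7 (3.22) and 13 (3.47). F8 in the FL clones spanned 7.11 to 7.87, so only BDD clones 1 and 12 had F8 in the FL range. In those 2 clones HRK was at 7.50 and 7.71, BBC3 at 8.15 and 8.19, and BAX at 3.68 and 3.61, outside the FL ranges of the same genes. All 6 BDD clones lay outside the FL ranges of HRK and BAX, and 5 of 6 outside that of BBC3. These values describe the clones, and a part played by F8 was not tested.

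**Figure D4:**
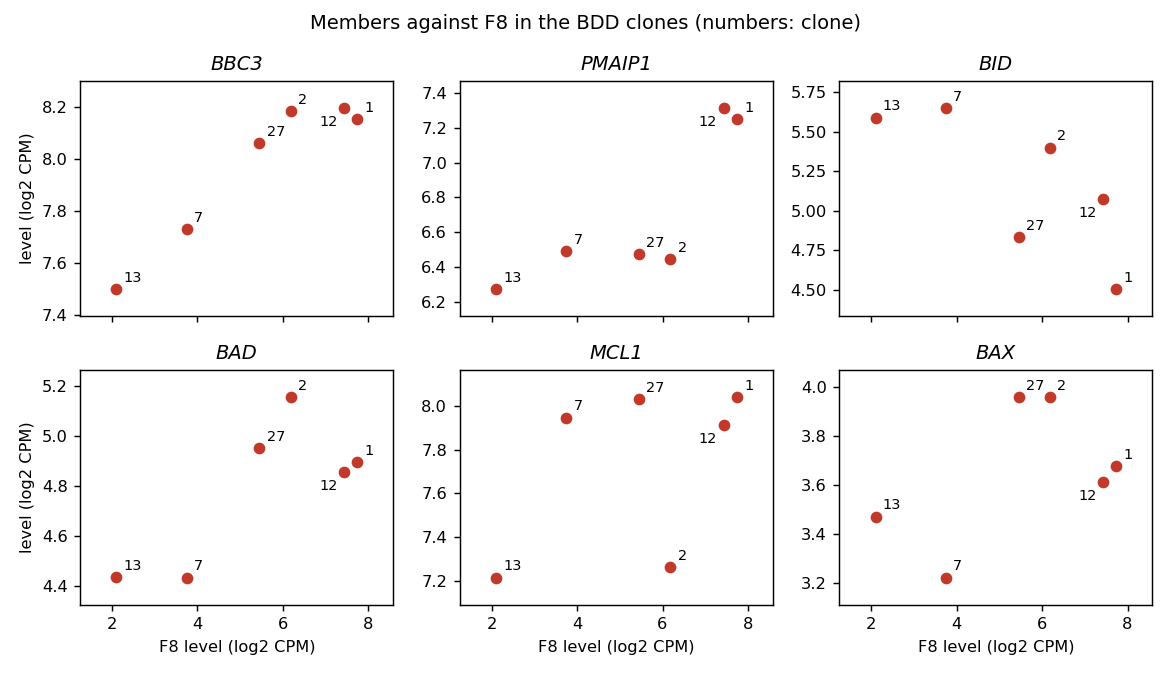
Level of 6 members (log2 CPM, vertical axes) against F8 (log2 CPM, horizontal axis) in the 6 BDD clones, each point labelled with its clone number. BBC3 and BAD are lowest and BID highest in clones 7 and 13 at the left, and PMAIP1 is above 7 in clones 1 and 12 at the right.

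For each member called, the genes whose values over the 11 clones ran most closely with it were found among 11676 genes with a mean of at least 2 log2 CPM. They were MVP (Pearson r = 0.98), AP1G2 (0.97) and LRRC4B (0.97) for HRK, and SHANK2 (0.97), FEZ1 (0.94) and ZNF33B (0.94) for BBC3. For BAX they were EPRS1 (0.97), PTP4A1 (0.97) and HSD17B4 (0.96), and for BAD APBB1 (0.94), ABHD4 (0.89) and ARFGAP3 (0.88). The points are the BDD and FL clones and the HEK 28 line, and correlations within a group were not computed. EPRS1, the glutamyl-prolyl tRNA synthetase, was at 7.17 log2 CPM in BDD and 7.82 in FL clones, and MVP, the major vault protein, at 3.86 and 1.65.

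Of the other BCL2 family genes 10 were measured, of which 3 rose and 1 fell, where 16.1% of all genes tested were higher and 16.5% lower. Their median difference was 0.37, against 0.0087 for all genes tested. BMF and BIK encode BH3-only proteins. BMF was at 3.17 to 3.96 log2 CPM in BDD and 2.10 to 2.78 in FL clones (1.27, SE 0.21, adjusted p = 0.00056), without overlap. BIK rose from a low level (0.45 to 2.69 in BDD, -0.09 to 1.05 in FL; 1.40, SE 0.40, adjusted p = 0.015), with overlap. BNIP3L (NIX), a mitophagy receptor, was at 6.02 to 6.52 in BDD and 5.13 to 5.53 in FL clones (0.81, SE 0.13, adjusted p = 0.00034). BCL2L12 fell (-0.53, SE 0.13, adjusted p = 0.0061). BCL2, the founding pro-survival gene, was at 3.22 to 3.87 in BDD and 2.79 to 3.37 in FL clones (0.42, adjusted p = 0.099), and BCL2L2 was not analysed here.

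Of 9 measured genes for channels, receptors and fission factors of the outer membrane 6 fell and 0 rose by limma (median -0.62), where 16.5% of all genes tested were lower. With per-clone trends removed 4 fell and the median was -0.31. Over all genes tested, 2326 were lower in that fit, against 2574 in the main fit. The sixth by p, DNM1L, a fission enzyme named after its value was seen, fell by 0.33 (adjusted p = 0.031), which was lost without any one of BDD clones 1 and 13 and FL clones 4, 7, 9 and 10. VDAC1, the main channel of that membrane, was at 6.18 to 6.73 log2 CPM in BDD and 7.38 to 7.85 in FL clones (-1.14, SE 0.14, adjusted p = 5.28e-05). MTCH2, a receptor for truncated BID, was at 5.87 to 6.55 and 7.31 to 8.09 (-1.33, SE 0.17, adjusted p = 9.03e-05). The fission receptor MFF fell by 0.82 (adjusted p = 0.00044) and VDAC3 fell by 0.62 (adjusted p = 0.0021). None of these 4 overlapped between the groups, where 22.7% of all genes tested did not overlap. FIS1, named after its value was seen, fell by 0.87 (adjusted p = 0.0092) with overlap. VDAC2, which holds BAK at the membrane, was at 7.16 log2 CPM in BDD and 7.26 in FL clones and did not pass (-0.11, adjusted p = 0.42); it was named after its value was seen. The share of mitochondrially encoded transcripts was lower in every BDD clone than in every FL clone, as given above, and its part in this list was not tested.

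Downstream, 5 of 13 apoptosome and caspase genes fell and 0 rose by limma (median -0.25), where 16.5% of all genes tested were lower. The number that fell was 3 without FL clone 7 and 3 without FL clone 9. Over all genes tested, 2213 and 1868 were lower in those fits, against 2574 in the main fit. CYCS, cytochrome c, was at 6.71 to 7.23 log2 CPM in BDD and 7.49 to 8.20 in FL clones (-0.81, SE 0.15, adjusted p = 0.0012). AIFM1 fell by 0.75 (adjusted p = 0.0032) and CASP9, the initiator caspase of the apoptosome, fell by 1.22 (adjusted p = 0.0081), both without overlap. CASP8, which cuts BID, fell by 1.68 (adjusted p = 0.021), from 2.27 to 3.23 in FL clones to 0.03 to 2.94 in BDD clones; this call was lost without FL clone 7 or 9. ENDOG, a mitochondrial nuclease and the fifth gene, fell by 0.47 (adjusted p = 0.033), a call lost without BDD clone 7 or FL clone 7 or 9. Among 5 caspase inhibitors BIRC5 (-0.62, adjusted p = 0.0014) and BIRC2 (-0.55, adjusted p = 0.020) fell and 0 rose (median 0.01, of either sign over the refits), and the BIRC2 call was lost without FL clone 9.

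Of 11 death receptor and adaptor genes 2 rose and 3 fell (median 0.08, of either sign over the refits), where 16.1% of all genes tested were higher and 16.5% lower. FADD, the adaptor that recruits caspase-8, was at 4.11 to 4.90 log2 CPM in BDD and 5.76 to 5.84 in FL clones (-1.18, SE 0.16, adjusted p = 0.00010). TNFRSF10B, the TRAIL receptor DR5, rose from 6.61 to 6.99 in FL to 7.19 to 7.79 in BDD clones (0.65, SE 0.13, adjusted p = 0.0021). TRADD (-0.91, adjusted p = 0.016) and DAXX (-0.41, adjusted p = 0.022) fell, calls lost without FL clone 7 for TRADD and without FL clone 4, 7 or 9 for DAXX. TNFRSF10D, a decoy TRAIL receptor and the other gene that rose, did so by 0.45 (adjusted p = 0.047), a call lost in 7 of the 10 fits that leave out a clone. Without BDD clones 2 and 12, 1 gene of this list rose and 2 fell, and without FL clone 7, 2 rose and 1 fell. Over all genes tested, 2159 were higher and 2191 lower without BDD clones 2 and 12. Without FL clone 7, 2170 were higher and 2213 lower.

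Genes that set the turnover of family proteins split, with 1 of 14 higher and 2 lower (median -0.10), where 16.1% of all genes tested were higher and 16.5% lower. TPT1, which stabilises MCL1, was at 10.69 to 11.29 log2 CPM in BDD and 9.85 to 10.42 in FL clones (0.77, SE 0.14, adjusted p = 0.0012). BAG3, a co-chaperone, fell (-1.03, adjusted p = 0.017), which was lost without FL clone 9. PPP2R1A, the scaffold of the phosphatase PP2A, fell (-0.41, adjusted p = 0.032), which was lost without any one of BDD clones 2 and 13 and FL clones 4, 9 and 10. Without BDD clones 2 and 12, 3 genes of this list fell, and without FL clone 9 none did by limma (0, with 1 higher). Over all genes tested, 2191 and 1868 were lower in those fits, against 2574 in the main fit.

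Of 15 measured transcription factors and cofactors known to act on these genes 8 rose and 1 fell (median 0.40), where 16.1% of all genes tested were higher and 16.5% lower. The number that rose was 5 with either library alone and with F8 as a covariate. Over all genes tested, 2506 were higher in the main fit. That number was 1468 with library a, 1529 with library b and 1514 with F8 as a covariate. Among the 8 that rose in the main fit are STAT3 and RUNX1, chosen after their values were seen. Their calls were lost in 8 and 7 of the 10 fits that leave out a clone. ATF3 was at 7.59 to 8.06 log2 CPM in BDD and 5.71 to 6.62 in FL clones (1.64, SE 0.17, adjusted p = 1.78e-05), TRIB3, a pseudokinase that CHOP and ATF4 induce, at 4.47 to 5.30 and 3.58 to 4.03 (1.15, SE 0.17, adjusted p = 0.00029). JUN, known to raise HRK and BCL2L11 in neurons, was at 9.51 to 10.02 and 8.72 to 9.10 (0.73, SE 0.12, adjusted p = 0.00060). DDIT3, which encodes CHOP, was at 4.25 to 5.11 and 3.08 to 3.95 (1.08, SE 0.22, adjusted p = 0.0022). ATF4, named after its value was seen, was at 10.36 to 11.03 and 10.34 to 11.00 and did not pass (0.27, adjusted p = 0.20). The lower gene, named after its value was seen, was MYC (4.11 to 6.02 in BDD, 5.66 to 6.49 in FL; -1.04, adjusted p = 0.020). The MYC call was lost without FL clone 4 or 9. Without BDD clones 2 and 12, 6 of the 15 rose and 0 fell by limma, MYC having an adjusted p of 0.070. In that fit 2159 of all genes tested were higher and 2191 lower. With per-clone trends on level, GC content and length removed, the calls of BIK, VDAC3, DNM1L, BIRC2, DAXX, PPP2R1A, RUNX1 and MYC were lost (adjusted p of 0.052 to 0.26), and with library totals as the scale those of DNM1L, ENDOG, DAXX and PPP2R1A (0.055 to 0.065). This list and the others were written with earlier results of these data known, so their directions are descriptions of these clones.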

How the data were processed

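RNA of 22 libraries from 11 clones was sequenced on an Illumina HiSeq. Per the submitters' processing notes, FastQC, cutadapt, TopHat2, Bowtie and hg38 were used; the counter, annotation, strand setting, filter and scaling were not given in the sources used here. Values were deposited as log2 CPM with a prior of about 1.99 reads (lowest value -1.45), and whole reads were recovered from it for 100% of genes within 0.01 of a read.

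From these deposited log2 values, libraries a and b were averaged per clone, genes with at least 1 CPM in at least 4 of 10 clones were kept, and BDD was compared with FL by limma 3.58.1 (empirical Bayes with trend, R 4.3.3), with Benjamini-Hochberg adjustment over 15611 genes. The script was run on simulated data with far fewer changed genes than were called here. That run does not show its error rate in these clones. Since the table holds log values and not counts, limma-voom on the recovered reads was an alternative; other scalings, filters, priors, units, left-out clones and covariates were also tried. P-values measure the spread between clones. Identifiers were matched to GENCODE 29 (15797 of 15797), and promoter windows to RefSeq GRCh38.p14 for 9 of 10 members.

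The members and gene lists were chosen with earlier results of these data known. All members are named, as are up to 4 called genes of smallest p in each list, BCL2 and BCL2L2 where measured, and the 3 genes most like each called member. The endothelial, fibroblast, leukocyte and HEK293 marker lists served to check the label. A few genes of the lists are not reported here. Bulk RNA cannot separate fewer transcripts per cell from fewer cells expressing a gene.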

Additional observations from a re-analysis of the deposited data

How the results depend on the processing

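The count of members called was 4 and lay between 3 and 5 in each of the 30 alternatives run. Calls over all genes tested varied as well, with 5080 of 15611 in the main fit. Among the 28 refits they ran from 2941 of 15611 (library a alone) to 6480 of 15611 (libraries as separate samples). HRK and BBC3 kept direction and call in all 28 refits; BAX kept its direction in all 28 and lost its call in 2, and BAD kept its direction in all 28 and lost its call in 7, library a alone (0.50, adjusted p = 0.20) among them. PMAIP1, which never passed, turned sign with library totals (0.0134), without BDD clones 7 and 13 (0.1281), with F8 as a covariate (0.3187) and with per-clone trends on level, GC content and length removed (0.3123); with each clone left out it ran from -0.1558 to 0.0638. MCL1, which never passed either, turned sign with library a alone (0.1011), with F8 as a covariate (0.0969) and with per-clone trends removed (0.1592), and ran from -0.1733 to 0.0077 with each clone left out. The cause was not tested. With libraries as samples and the letter as a replicate block, 4 members were called (HRK 1.04, BAX -0.83), as without the block. Over all 15611 genes tested, 6399 were called with the block and 6480 without it. The letters do not pair samples across clones: deviations of same-letter libraries correlated at 0.01 on average and those of different letters at -0.01. Leaving out BDD clones 2 and 12 was added after seeing the data. Depth limits BCL2L1 most, at 12 to 45 reads a library.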

Other observations

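MCL1 and BCL2L11, which encode a pro-survival protein and a BH3-only protein it binds, differed between the 2 libraries in the same direction in 10 of 11 clones, BCL2L11 mostly by more. Library a minus library b was 1.66 for MCL1 and 2.39 for BCL2L11 in BDD clone 2, 0.75 and 0.71 in BDD clone 13, and -0.68 and -1.30 in BDD clone 12 (log2 CPM). It was 0.30 and 0.92 in BDD clone 7, and in FL clone 9 the signs were opposite (0.17 and -0.06). In FL clone 7 it was -0.37 and -0.68, and in FL clone 10 it was 0.04 and 0.26. Over the 11 clones Pearson's r was 0.96 (permutation p = 3e-05, adjusted 0.00027 over 9 relations of MCL1 with the other members) and Spearman's rho was 0.88 (permutation p = 0.00063, adjusted 0.0057). Without BDD clones 2 and 12, the farthest from the median of MCL1, r was 0.85 (n = 9). Within the 6 BDD clones, clones 2 and 12 included, it was 0.97, and the 4 FL clones are too few for a value. Other members also had a large r with MCL1 within the BDD clones: BID -0.86, HRK -0.78, PMAIP1 0.78 and BAK1 -0.77. For BBC3, BCL2L1, BAX and BAD it ran from -0.54 to 0.06. BID was the other relation with an adjusted Pearson p below 0.05 over the 11 clones (r = -0.79, adjusted 0.034). The BID relation rests on BDD clones 2 and 12 (r = -0.30 without them). The relation of MCL1 with BCL2L11 was looked for after the library differences had been seen, and the adjustment covers only the 9 relations of MCL1. Its p-values are therefore a description and no independent test. The value of r also depends on which library of a clone is called a. Libraries of BDD clones 2 and 12 differed widely over all genes above 4 log2 CPM (SD 0.83 and 0.53). How many other genes ran as closely with MCL1 was not computed. MCL1 and BCL2L11 lie on chromosomes 1 and 2, and what separates library a from library b is not given in the labels.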
